A study of Mus musculus with 10 samples.

Results

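The effect of depolarization on transcript abundance was taken from the 5 RNAseq libraries of the series, which holds 10 libraries in all. The members are the libraries labelled as RNAseq: untreated cultures 1, 2 and 3 (n = 3) and KCl cultures 4 and 5 (n = 2). All were mixed cultures of neurons and glia from the cortex of newborn (P0) FVB mouse pups of both sexes, grown for 7 days in a medium with serum in which glia expand. The KCl cultures received 55 mM KCl for 3 h, and every culture, untreated ones included, received cycloheximide, a blocker of translation elongation, at 100 ug/ml for 7 min before lysis. The other 5 libraries are ribosome footprint (RF) libraries of the same cultures. They were used here only to say which genes had few footprints.

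Raising extracellular KCl depolarizes the neuronal membrane and opens voltage-gated calcium channels. Calcium activates kinases that phosphorylate CREB, bound at the cAMP response element (CRE), and the cofactors of SRF and MEF2, and these factors switch on immediate early genes. Many immediate early genes encode transcription factors, which then act on a second set of genes for synaptic, secreted and feedback proteins. Glia in the same dish also respond to potassium and to what neurons release. In a bulk library fewer cells of a type and less RNA per cell cannot be told apart.

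Reads on the 4 regions of a transcript were summed, and each gene was represented by its transcript with the highest mean count. Of 13184 genes, 9726 had a mean of at least 10 reads and were tested with edgeR's quasi-likelihood test. A gene is said to rise or fall only where its Benjamini-Hochberg adjusted p was under 0.05. Between KCl and untreated cultures 2508 genes passed (25.8% of those tested), of which 1349 rose (13.9%) and 1159 fell (11.9%). The median log2 fold change was 0.80 among rises and -0.93 among falls, and 427 rises and 513 falls were larger than 2-fold. With library totals in place of TMM the median gene moved by -0.137 on the log2 scale, and the split became 965 rises and 1793 falls. Without KCl culture 4 the count was 1518 genes and without KCl culture 5 it was 1562. Groups that did not overlap (both KCl cultures beyond all 3 untreated cultures) were found for 4881 genes, or 50.2%. Of the calls, 27 rises had an untreated mean under 10 reads and 141 falls a KCl mean under 10 reads, and these genes entered the test only through the group in which they were high. Among genes named below, these include the rises Inhba, Pygm, Kcnj2 and Kcnj4. They also include the falls Dguok, Il1b, Gbp3, Hes5, Fzd10, Pars2, Tefm, Prim1, Zfp60, Zfp518a, Zfp707, Zbtb26, Kbtbd8, Gpr84, Adra1b and Slc16a14. The read filter fixed their direction, so their values are a description. For a gene list, 2 numbers set beside "without" and a culture are its rises and falls in that order when that library was left out, given where a count moved by 2 or more genes and over 1.5 times or where the balance turned. Shares of a list are read against the 13.9% and 11.9% of all genes. With reads of the coding region only, 211 of 305 called genes that were checked kept their call. Such losses are named below for some genes only. Libraries held between 3056286 and 3629959 reads. Levels are normalized CPM of single cultures, the reads of a gene scaled to library size, and errors of log2 fold changes are approximate standard errors. A signed number that follows a gene's name alone, in brackets or after "at", is its log2 fold change, KCl over untreated.

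Most measured genes of the first wave of the activity response rose. Of the immediate early transcription factors, 22 of 27 tested members rose and 1 fell (median log2 fold change 1.65), against a median of -0.016 over all genes tested. Nr4a2, an orphan nuclear receptor (chr2:57106830-57115038, minus strand, GRCm38), was at 9.87, 6.80 and 6.64 CPM in untreated cultures 1, 2 and 3 and 313 and 279 CPM in KCl cultures 4 and 5 (log2 fold change 5.23 ± 0.21, adjusted p = 2.2e-27). The lowest KCl culture lay far above the highest untreated culture. Maff, a small MAF protein that pairs with other basic leucine zipper factors, was at 37.1, 64.6 and 44.9 CPM untreated and 574 and 531 CPM after KCl (log2 fold change 3.50 ± 0.16, adjusted p = 1.9e-24). Klf4, a zinc finger factor of the Krüppel-like family, was at 7.52, 7.29 and 13.8 CPM untreated and 101 and 97.3 CPM after KCl (log2 fold change 3.38 ± 0.25, adjusted p = 1.7e-16). In both genes the 2 groups were well apart and the KCl cultures lay close together.

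Fos, the founding member of the AP-1 family, was at 38.1, 53.5 and 47.5 CPM untreated and 152 and 139 CPM after KCl (log2 fold change 1.65 ± 0.18, adjusted p = 1.2e-10), and its relative Fosl2 at 95.9, 143 and 153 CPM untreated and 1062 and 1043 CPM after KCl (log2 fold change 3.01 ± 0.15, adjusted p = 1.5e-23). The KCl cultures of both genes lay above all untreated cultures. Srf, the factor that binds CArG boxes of immediate early promoters, rose with a log2 fold change of 2.36, and Egr2, a zinc finger factor under its control, with 2.91. Csrnp1 (3.50), Mafk (3.17), Klf6 (1.95), Cebpb (1.95), Atf3 (1.85), Ier5 (1.56), Ier2 (1.51), Junb (1.09), Myc (1.00) and Jun (0.67) also rose. Jund (0.17), Btg2 (0.27), Klf2 (0.20) and Klf10 (0.26) did not pass the test. Bhlhe40, a repressor of the clock that is also listed as an early gene, fell by a small amount (log2 fold change -0.42 ± 0.16, adjusted p = 0.045), and its groups overlapped. That call was lost under DESeq2, with all transcripts of the gene summed, and without untreated culture 2 (-0.29), untreated culture 3 (-0.41) or KCl culture 4 (-0.17), and that of Jun with coding reads only (0.37). Egr1, Fosb and Npas4 were not analysed here.

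**Figure D1:**
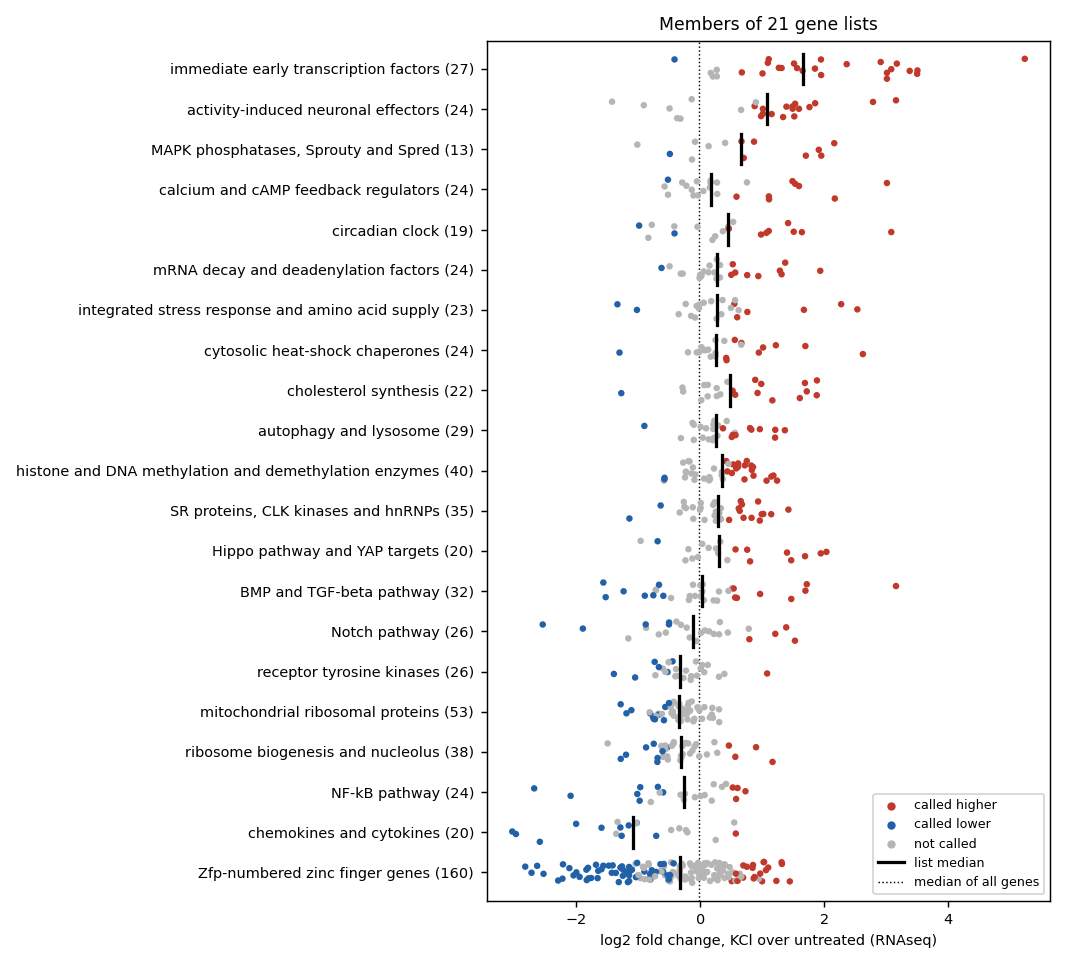
Log2 fold changes (KCl over untreated, RNAseq) of the tested members of 21 gene lists, 1 point per gene, with the number tested in brackets, the list median as a black bar and the median of all genes as a dotted line. Immediate early factors lie mostly right of the dotted line and chemokines mostly left of it, while Notch and BMP genes lie on both sides.

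The second wave covers proteins that carry the response to synapses and neighbouring cells. Among activity-induced neuronal effectors, 16 of 24 tested members rose and 0 fell (median log2 fold change 1.08). At an unadjusted p under 0.05 edgeR gave 3 falls, and DESeq2 and limma-voom gave 0 after adjustment, while with library totals 15 rose and 4 fell. Leaving out untreated culture 1, 2 or 3 gave 1 fall each time. Inhba, which encodes a subunit of the secreted ligand activin, was at 3.29, 0.486 and 0.511 CPM untreated and 14.2 and 12.8 CPM after KCl (log2 fold change 3.16 ± 0.57, adjusted p = 1.8e-05), with 1 read in each of untreated cultures 2 and 3, so the size of its change rests on few reads. Ptgs2, the inducible cyclooxygenase of prostaglandin synthesis, was at 6.11, 7.29 and 10.7 CPM untreated and 56.9 and 54.1 CPM after KCl (log2 fold change 2.79 ± 0.29, adjusted p = 1.9e-11). Neither gene had an untreated culture near the KCl cultures. Inhba had an untreated mean under 10 reads and entered the test through the KCl cultures.

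Plk2, a kinase that acts on dendritic spines, was at 42.3, 33.04 and 35.7 CPM untreated and 129.5 and 122 CPM after KCl (log2 fold change 1.76 ± 0.19, adjusted p = 4.2e-11). Scg2 (secretogranin 2, a precursor of secreted peptides, 1.51), Homer1 (a postsynaptic scaffold, 1.39), Gpr3 (a receptor that raises cAMP, 1.85), Gadd45b (1.49), Gadd45g (1.33) and Nrn1 (a neuritin, 0.88) rose with no overlap. Arc, a regulator of AMPA receptor endocytosis, was at 6.58, 7.77 and 8.17 CPM untreated and 12.6 and 17.6 CPM after KCl (log2 fold change 1.01 ± 0.39, adjusted p = 0.049). Its groups did not overlap, but the call was lost when any 1 of the 5 libraries was left out, and under DESeq2, limma-voom, library totals and no read filter. The neuropeptide gene Penk (-1.43), Vgf (-0.91), Tac1 (0.89) and Nptx2 (0.66) had large fitted values in both directions that did not pass. The call of Nrn1 was lost with coding reads only (0.047) and without KCl culture 5 (0.79).

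Genes for negative feedback on the kinases and on calcium entry were among the rises. Of the MAPK phosphatases, Sprouty and Spred genes, 7 of 13 tested members rose and 1 fell (median log2 fold change 0.66). Dusp1, a nuclear phosphatase of MAP kinases, was at 46.05, 42.3 and 42.4 CPM untreated and 196 and 194 CPM after KCl (log2 fold change 2.16 ± 0.17, adjusted p = 2.5e-15). Dusp16 (1.95), Dusp8 (1.91), Dusp10 (1.70), Dusp5 (0.87) and Dusp3 (0.70) rose as well, whereas Spred1, an inhibitor of Ras signalling, fell (-0.49). Of the calcium and cAMP feedback regulators, 8 of 24 tested members rose and 1 fell (median log2 fold change 0.16). Sik1, a kinase that keeps the CREB coactivators out of the nucleus, was at 23.02, 28.7 and 29.6 CPM untreated and 136 and 108 CPM after KCl (log2 fold change 2.17 ± 0.20, adjusted p = 3.4e-13). Crem, whose short isoforms repress CRE promoters, rose (3.01), as did Rem2 (1.59) and Gem (1.49), small GTPases that inhibit calcium channels, Rgs2 (1.53), which shortens G protein signals, and Pde4d (1.11), which degrades cAMP. The CREB coactivator Crtc1 fell (-0.52). Neither fall held without KCl culture 4 (Spred1 -0.54, Crtc1 -0.46) or without KCl culture 5 (-0.44 and -0.59), and that of Crtc1 did not pass without untreated culture 3 (-0.40) or by DESeq2. The rise of Dusp5 was lost without untreated culture 2 (0.73) or KCl culture 5 (0.70), and those of Dusp3 (0.43) and Pde4d (0.85) with coding reads only.

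Genes of the circadian clock and of mRNA decay were listed because both classes hold early response genes. Of clock genes, 8 of 19 tested members rose and 2 fell (median log2 fold change 0.45). Nfil3, a repressor that competes with the D-box activators, was at 49.8, 60.7 and 55.7 CPM untreated and 463 and 474 CPM after KCl (log2 fold change 3.08 ± 0.15, adjusted p = 1.5e-23). The clock activator Arntl (1.64), the repressors Cry1 (1.51) and Per1 (1.10), the nuclear receptors Rora (1.41) and Rorb (1.06) and the kinase Csnk1d (0.98) rose. Bhlhe41 fell (-0.99). Activators and repressors of the loop were both among the rises. Of mRNA decay and deadenylation factors, 9 of 24 tested members rose and 1 fell (median log2 fold change 0.26). They included Tob2 (1.93), which recruits the deadenylase, Rc3h1 (1.37) and Zfp36 (1.31), which bind unstable mRNAs, Pan3 (1.28) and the scaffold Cnot1 (0.75). The deadenylase Parn fell (-0.63). Its call was lost without either KCl culture (-0.64 without culture 4, -0.61 without culture 5) and with coding reads only (-0.47).

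**Figure D2:**
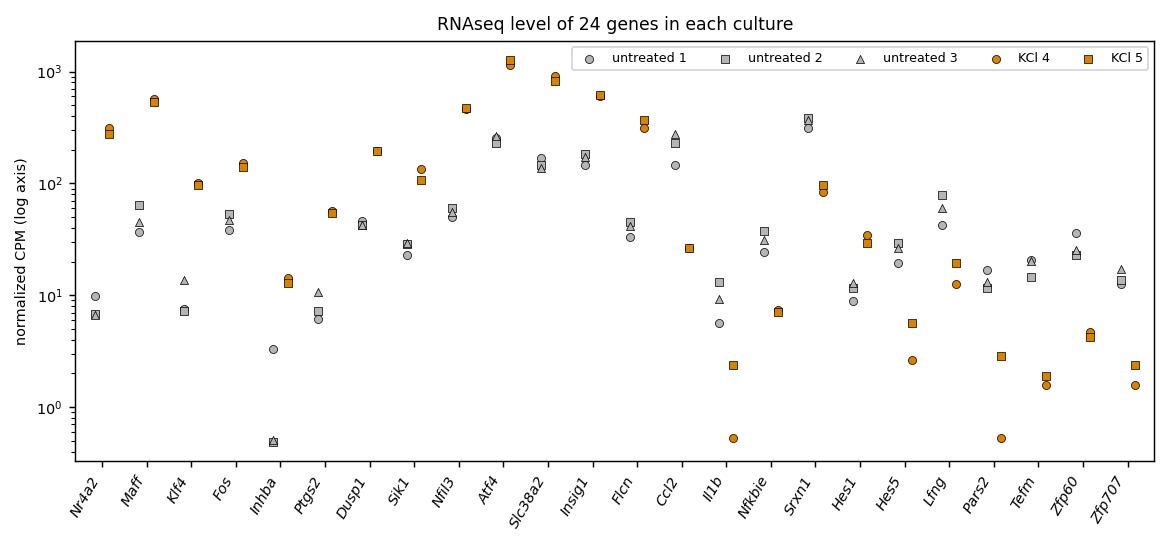
Normalized CPM (log axis) of 24 named genes in each of the 5 RNAseq cultures, grey for untreated and orange for KCl, 1 symbol per culture. In every gene shown the 2 KCl symbols lie on one side of the 3 untreated symbols.

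The CRE is the binding site of CREB, so its letters were searched in RefSeq promoters (build GRCm38.p6, 250 bases before to 50 bases after the start). A promoter whose start lay within 500 bases of the start of the counted transcript was found for 7247 of the genes tested (74.5%). The palindrome TGACGTCA occurred in 3.31% of these promoters, in 5.91% of the 1016 promoters of rises, in 8.75% of the 320 promoters of rises over 2-fold and in 2.79% of the 860 promoters of falls. Its core TGACG (the partial site), which lies within the palindrome and was searched on both strands, occurred in 33.1%, 44.2%, 50% and 32.6% of the same groups. The AP-1 site TGACTCA occurred in 3.20% of all, 2.85% of rises and 4.53% of falls, and the E-box CACGTG in 10.3%, 13.5% and 10.5%. The CArG box occurred in 1.20% of all, 0.79% of rises (8 promoters), 1.56% of rises over 2-fold (5 promoters) and 1.40% of falls. The short pattern TGANNNNGC, searched for the antioxidant response element, occurred in 42.9%, 43.6%, 46.9% and 42.9% of the same groups. Its middle bases are free, so a match need not be such an element. These shares are a description of letters in a window, with no test.

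The CRE is shown in 6 promoters of genes that rose and, for contrast, in 1 of the largest falls. Each runs 5′ to 3′ on the strand of its gene, with the CRE in capitals. They are Maff (chr15:79347480-79347509, plus strand), Flcn (chr11:59810070-59810099, minus), Dusp1 (chr17:26508597-26508626, minus), Plk2 (chr13:110394971-110395000, plus), Scg2 (chr1:79440076-79440105, minus), Tra2a (chr6:49264061-49264090, minus) and Dguok (chr6:83506955-83506984, minus).
Maff: ggctggggcggTGACGTCActgcatgactg
Flcn: aatgtcagtttTGACGTCAcccctgcagaa
Dusp1: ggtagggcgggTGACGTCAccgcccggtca
Plk2: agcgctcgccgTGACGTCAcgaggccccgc
Scg2: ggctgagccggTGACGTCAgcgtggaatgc
Tra2a: ggtccgcccctTGACGTCAggcgccgggga
Dguok: tgacggccctcTGACGTCAaaggtgcgctg
The first base of the CRE lay 29 bases before the RefSeq start in Maff, 49 in Flcn, 143 in Dusp1, 62 in Plk2, 68 in Scg2, 27 in Tra2a and 4 in Dguok. Dguok, the mitochondrial deoxyguanosine kinase, was at 26.8, 22.8 and 33.2 CPM untreated and 2.63 and 3.32 CPM after KCl (log2 fold change -3.18 ± 0.41, adjusted p = 1.8e-08), so the same letters stood in the promoter of a gene that moved the other way. Dguok had a KCl mean under 10 reads, so the read filter fixed that direction.

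**Figure D3:**
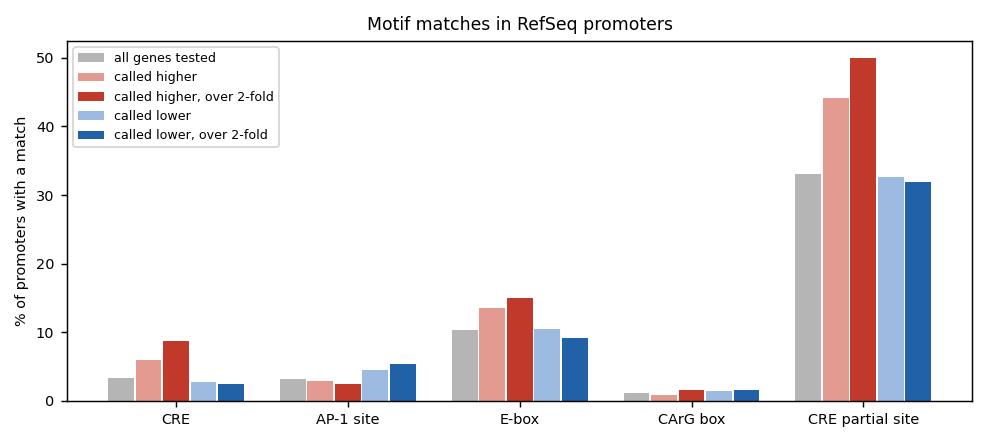
Share of RefSeq promoters (in %) with a match on either strand to each of 5 motifs, for all genes tested, rises, rises over 2-fold, falls and falls over 2-fold. The CRE bar is 3.31% for all genes and 8.75% for rises over 2-fold, and the bars at the far right, for the partial site TGACG, are 33.1% and 50%.

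Stress programs moved in part and unevenly. The integrated stress response raises translation of Atf4, whose protein turns on genes of amino acid supply. Of that list 6 of 23 tested members rose and 2 fell (median log2 fold change 0.26). Atf4 itself was at 255, 229 and 267 CPM untreated and 1139 and 1274 CPM after KCl (log2 fold change 2.27 ± 0.13, adjusted p = 3.4e-20), and Slc38a2, an amino acid transporter of the plasma membrane, at 167, 146 and 138 CPM untreated and 910.3 and 833 CPM after KCl (log2 fold change 2.53 ± 0.14, adjusted p = 8.9e-22). Both genes were several-fold above every untreated culture. Sesn2, a leucine sensor, rose (1.67), while Slc1a5, a glutamine transporter, and Ddit4, an inhibitor of mTORC1, fell (-1.34 and -1.02). The call of Slc1a5 was lost without KCl culture 5, and that of Ddit4 with coding reads only.

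A list on amino acid sensing by mTORC1, the growth-promoting kinase complex on the lysosome, was drawn up after the values had been seen, so its counts are given as a description. In it, 9 of 30 tested members rose and 6 fell (median log2 fold change 0.029). Flcn, a GTPase activator for the Rag GTPases, was at 33.4, 45.2 and 41.9 CPM untreated and 311 and 369.7 CPM after KCl (log2 fold change 3.08 ± 0.16, adjusted p = 6.1e-22). Rragc (2.24) and Rraga (1.43), which encode Rag GTPases, and the Flcn partner Fnip2 (1.36) rose, and Nprl3 (-2.07), of a complex that acts upstream of the Rags, fell. The call of Rraga was lost with coding reads only (0.0044), as was that of Nprl3 (-1.40), which did not pass without KCl culture 4 either (-1.56). In autophagy and lysosome genes 10 of 29 tested members rose and 1 fell (median log2 fold change 0.25). Those that rose included the autophagy receptor Sqstm1 (1.36) and the LC3 family genes Gabarapl1 (1.21) and Map1lc3b (1.20), and Tfeb, the factor that drives lysosomal genes, fell (-0.90). The call of Tfeb was lost without KCl culture 4 (-0.74), without untreated culture 2 (-0.74) and with coding reads only.

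Of endoplasmic reticulum chaperones and unfolded protein response genes, 7 of 22 tested members rose and 0 fell (median log2 fold change 0.17). At an unadjusted p under 0.05 edgeR gave 1 fall, and DESeq2 and limma-voom gave 0 after adjustment. Without untreated culture 1 edgeR gave 1 fall after adjustment. The co-chaperone Dnajb9 (2.00), Herpud1 (1.59) and Edem1 (1.03), which serve degradation of misfolded proteins, had the largest values. Of cytosolic heat-shock chaperones, 9 of 24 tested members rose and 1 fell (median log2 fold change 0.24). Dnajb4 (1.69), Bag3 (1.22) and Dnajb1 (1.01) rose, and Hspb1 fell (-1.31), a call that was lost without KCl culture 4. NRF2 antioxidant genes split, with 5 rises and 2 falls among 24 tested. Heme oxygenase Hmox1 was at 144, 159.9 and 158 CPM untreated and 333 and 435 CPM after KCl (log2 fold change 1.32 ± 0.14, adjusted p = 1.1e-10), and Srxn1, which repairs oxidized peroxiredoxins, at 316, 388 and 368 CPM untreated and 84.2 and 96.8 CPM after KCl (log2 fold change -1.98 ± 0.16, adjusted p = 3.9e-15). Both genes are known NRF2 targets, and their groups separated in opposite directions. Osmotic stress and ion balance genes had 4 rises and 3 falls among 24 tested (2 and 2 without KCl culture 4, 4 and 1 without KCl culture 5), led by Nfat5, the factor of the response to high tonicity (1.81), shares of 16.7% and 12.5% that lay near those of all genes. With library totals 4 rose and 5 fell. The p53 target genes had 7 rises and 3 falls among 24 tested (8 and 1 without untreated culture 3, 8 and 1 without KCl culture 4, 5 and 1 without KCl culture 5), with Fas at -1.62 and Gadd45a at 1.56, and hypoxia-inducible genes had 6 rises and 2 falls among 23 tested, with Kdm3a at 1.24 and Adm at 1.10. Adm did not pass without KCl culture 5 (0.90), nor Gadd45a with coding reads only (1.07).

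Most sterol genes that were called rose. Of the cholesterol synthesis list, 11 of 22 tested members rose and 1 fell (median log2 fold change 0.48), and with library totals 11 rose and 1 fell. Insig1, the retention protein of the sterol sensor, was at 145, 182 and 172 CPM untreated and 601 and 620.3 CPM after KCl (log2 fold change 1.88 ± 0.14, adjusted p = 1.4e-16). Cyp51 (1.88, in a gene that overlaps Akap9), Sc5d (1.72), Msmo1 (0.98) and Sqle (0.92), enzymes of the pathway, the carrier Stard4 (1.60) and the factor Srebf2 (0.52) rose. The call of Srebf2 was lost without KCl culture 5 (0.42) and with coding reads only. Mevalonate kinase Mvk was the exception, at 31.5, 44.7 and 39.8 CPM untreated and 12.6 and 18.98 CPM after KCl (log2 fold change -1.28 ± 0.28, adjusted p = 0.00042). Fatty acid genes (2 rises and 1 fall among 21 tested, 0 and 0 without KCl culture 5) and genes of glycolysis and glucose transport (1 rise and 1 fall among 22 tested) had few calls, and the balance of the fatty acid genes turned with library totals (0 rose and 4 fell). Glycogen metabolism had 3 rises and 1 fall among 19 tested (1 and 1 without KCl culture 5). Ppp1r3c, which targets a phosphatase to glycogen, was at 362, 311 and 347 CPM untreated and 34.2 and 61.7 CPM after KCl (log2 fold change -2.81 ± 0.18, adjusted p = 1.8e-18), and Pygm, a glycogen phosphorylase, at 3.29, 0 and 1.02 CPM untreated and 12.1 and 12.3 CPM after KCl with 0 reads in untreated culture 2.

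Chromatin and RNA processing genes had smaller changes in a large share of members. Of histone and DNA methylation and demethylation enzymes, 18 of 40 tested members rose and 2 fell (median log2 fold change 0.35, with 14 and 0 without KCl culture 5), which is 45% of the list against the 13.9% of all genes. They included the histone demethylases Kdm3a (1.24), Kdm5b (1.18), Phf8 (1.07) and Kdm6b (0.82), the methyltransferases Setd1a (1.14) and Dot1l (0.83) and the DNA demethylases Tet2 (0.75) and Tet3 (0.72), while Tet1 (-0.58) and Nsd1 (-0.58) fell. Histone acetylation and remodelling had 7 rises and 4 falls among 31 tested (6 and 2 without untreated culture 2, 5 and 1 without KCl culture 4), led by the remodeller Chd2 at 70.5, 52.96 and 66.9 CPM untreated and 220.1 and 217 CPM after KCl (log2 fold change 1.78 ± 0.16, adjusted p = 4.4e-13). Of SR proteins, CLK kinases and hnRNPs, which set splice site choice, 13 of 35 tested members rose and 2 fell (median log2 fold change 0.29, with 12 and 0 without KCl culture 5). Tra2a (1.42), the kinases Clk1 (1.14) and Clk4 (0.99) and Srsf2 (1.02) rose and Clk2 fell (-1.15). The calls of Tra2a, Srsf2, Kdm6b and Tet1 were lost with coding reads only. Those of Clk2 (-0.96), Nsd1 (-0.52) and Tet1 (-0.37) were lost without KCl culture 5, and that of Tet1 also without untreated culture 1 (-0.44).

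Many inflammatory genes fell. Of chemokines and cytokines, 1 of 20 tested members rose and 10 fell (median log2 fold change -1.09), that is 50% of the list against 11.9% of all genes. Ccl2, the monocyte chemoattractant (chr11:82035571-82037453, plus strand, GRCm38), was at 146, 229 and 278 CPM in untreated cultures 1, 2 and 3 and 26.3 and 26.6 CPM in KCl cultures 4 and 5 (log2 fold change -3.04 ± 0.22, adjusted p = 6.3e-17). Il1b, interleukin 1 beta, was at 5.64, 13.1 and 9.19 CPM untreated and 0.526 and 2.37 CPM after KCl (log2 fold change -2.59 ± 0.64, adjusted p = 0.0016), a call that was lost without KCl culture 4. Lif, a cytokine of the interleukin 6 family, was at 17.4, 27.7 and 24.5 CPM untreated and 4.21 and 7.12 CPM after KCl (log2 fold change -2.01 ± 0.38, adjusted p = 5.1e-05). In each gene every KCl culture lay below every untreated culture. Il1b had a KCl mean under 10 reads and entered the test through the untreated cultures. Ccl7 (-2.98), Tnf (-1.60), Cxcl1 (-1.29) and Csf1 (-1.27) fell, and Ccl3 alone rose (0.57). That rise did not pass without KCl culture 5 (0.52) or with coding reads only.

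In the NF-kB pathway, which drives many of these genes, 4 of 24 tested members rose and 7 fell (median log2 fold change -0.26, with 2 and 7 without untreated culture 1, 1 and 6 without untreated culture 3, 1 and 3 without KCl culture 4, 2 and 5 without KCl culture 5). The inhibitors and feedback genes Bcl3 (31.95, 59.8 and 48.5 CPM untreated and 5.79 and 8.54 CPM after KCl, log2 fold change -2.68 ± 0.33, adjusted p = 3.1e-09) and Nfkbie (24.4, 37.9 and 31.1 CPM untreated and 7.37 and 7.12 CPM after KCl, log2 fold change -2.10 ± 0.34, adjusted p = 2.4e-06) fell, as did Tnip1 (-0.97), Tnip2 (-1.02) and the adhesion molecule Icam1 (-0.98). The subunit Rela (0.73), the kinase Chuk (0.58) and the feedback gene Nfkbiz rose, so feedback genes did not all fall. The call of Nfkbiz was lost with coding reads only (0.39) and without untreated culture 1 (0.49) or 3 (0.64). Without KCl culture 4 its log2 fold change was 0.23. The calls of Tnip1, Tnip2, Icam1 and Chuk were lost with coding reads only, and that of Tnip1 without KCl culture 4 (-0.63). Interferon-stimulated genes had 1 rise and 3 falls among 20 tested (1 and 1 without untreated culture 3), with Irf1 at -1.66 (in a gene that overlaps Gm17334) and Gbp3 at -1.43. That is 5% and 15%, a share of falls near the 11.9% of all genes. The rise was Isg20, whose untreated mean was under 10 reads, so the read filter fixed its direction. Of 8 complement and acute phase genes none rose (0 by edgeR, also at an unadjusted p under 0.05, and 0 by DESeq2 and limma-voom) and 3 fell, Lcn2 (-1.83), Steap4 (-1.50) and Saa3 (-1.24). Microglia markers stood beside these changes: of 20 tested, Fcgr3 rose (0.72), Cx3cr1 (-0.96), Cd14 (-1.22) and Tmem119 (-1.85) fell and 16 did not pass, among them Csf1r (-0.046), C1qa (-0.079) and Aif1 (-0.39). The fall of Cx3cr1 did not pass with coding reads only or without KCl culture 4 (-0.62). The summed level of the 20 ran from 852 to 925 CPM untreated and from 814 to 923 CPM after KCl. The calls of Chuk, Tnip2, Gbp3 and Fcgr3 were lost under DESeq2 and without KCl culture 4 (0.49, -1.06, -0.86 and 0.79), those of Chuk, Tnip2 and Gbp3 also without untreated culture 2 (0.38, -0.96 and -1.20) or 3 (0.59, -0.78 and -1.39), and those of Chuk and Tnip2 without KCl culture 5 (0.67 and -0.97). The rise of Fcgr3 was lost whichever library was left out (0.61 to 0.79).

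Developmental signalling pathways had calls in both directions. In the Notch pathway 4 of 26 tested members rose and 5 fell (median log2 fold change -0.12, with 3 and 2 without KCl culture 5), that is 15.4% and 19.2%. The effectors Hes1, at 8.93, 11.7 and 12.8 CPM untreated and 34.7 and 29.4 CPM after KCl (log2 fold change 1.53 ± 0.30, adjusted p = 8e-05), and Hes5, at 19.3, 29.2 and 26.6 CPM untreated and 2.63 and 5.70 CPM after KCl (log2 fold change -2.54 ± 0.40, adjusted p = 1.6e-06), are related repressors of neurogenesis and moved apart, with no overlap in either. Hes5 had a KCl mean under 10 reads, so the read filter fixed the direction of its fall and its value is a description. Lfng, which glycosylates Notch receptors, fell (-1.90), and Numb, which removes them from the surface, rose (1.38), while its relative Numbl fell (-0.88). The fall of Numbl did not pass without KCl culture 5 (-0.56), without untreated culture 3 (-0.74) or with coding reads only (-0.76).

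The BMP and TGF-beta pathway had 8 rises and 7 falls among 32 tested (3 and 6 without KCl culture 4), and with library totals 7 rose and 9 fell. The inhibitors Skil (1.72), Smad7 (1.69), Nog (1.47) and Bambi (0.96) rose and the target genes Id1 (-0.67), Id3 (-0.90) and Tgfbi (-1.57) fell, as did the inhibitor Smad6 (-1.24), whose call was lost without KCl culture 4, as were those of Bambi (0.85) and Id1 (-0.41). The call of Nog was lost without KCl culture 5 (1.22). The Wnt pathway had 4 rises and 5 falls among 28 tested (5 and 4 without untreated culture 2, 4 and 2 without KCl culture 4, 3 and 3 without KCl culture 5), shares of 14.3% and 17.9% against 13.9% and 11.9% of all genes. The receptors Fzd5 (1.67) and Fzd8 (1.02) and the scaffold Axin1 (1.40) rose and Fzd10 (-2.19), the ligand Wnt7a (-1.86) and the factor Lef1 (-1.28) fell. The calls of Fzd5 and Fzd8 were lost with coding reads only. That of Fzd8 was also lost without KCl culture 5 (0.62), and that of Lef1 without KCl culture 4 (-1.21) or 5 (-1.35). Of 10 Hedgehog genes, Gli3 rose (0.46) and Gli2 (-1.56), Gpr161 (-1.24) and Gas1 (-0.51) fell. The calls of Gli3 (0.57 and 0.35), Gpr161 (-1.17 and -1.30) and Gas1 (-0.45 and -0.58) were lost under DESeq2 and without KCl culture 4 (first value) or 5 (second value). Further losses came without untreated culture 1 for Gpr161 (-1.02), culture 2 for Gpr161 (-1.28) and Gas1 (-0.42) and culture 3 for Gli3 (0.31) and Gas1 (-0.58). With coding reads only, Gli3 (0.30) and Gpr161 (-1.325) did not pass either.

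Hippo pathway and YAP target genes leaned upwards: 8 of 20 tested members rose and 1 fell (median log2 fold change 0.30). Amotl2, a binding partner of YAP, was at 56.9, 64.6 and 77.1 CPM untreated and 285 and 256 CPM after KCl (log2 fold change 2.03 ± 0.16, adjusted p = 1.7e-15), and the matricellular target Ccn2 at 53.1, 52.96 and 52.1 CPM untreated and 205 and 200.3 CPM after KCl (log2 fold change 1.94 ± 0.17, adjusted p = 3.7e-14). The kinase Lats2 (1.69), Ccn1 (1.46) and Yap1 (0.80) rose, the last not with coding reads only (0.24). Receptor tyrosine kinases leaned downwards: 1 of 26 tested members rose and 6 fell (median log2 fold change -0.32, with 1 and 3 without untreated culture 2, 1 and 1 without KCl culture 4, 1 and 2 without KCl culture 5), with Pdgfrb at -1.05, Met at -0.74 and Pdgfra at -0.67 against Fgfr2 at 1.08. Their ligands had 1 rise and 2 falls among 19 tested. Met did not pass without untreated culture 1 (-0.51), KCl culture 4 (-0.76) or KCl culture 5 (-0.72), Pdgfrb without KCl culture 4 (-1.01) and Pdgfra without KCl culture 5 (-0.60).

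Transcription factors that set cell identity also changed. Of forebrain and glial factors, 11 of 38 tested members rose and 5 fell (median log2 fold change 0.034, with 7 and 5 without KCl culture 4, 8 and 3 without KCl culture 5), and with library totals 7 rose and 7 fell. Pax6 (1.01) and 3 MEF2 genes, Mef2d (1.02), Mef2c (0.93) and Mef2a (0.56), rose. The calls of Mef2c and Mef2a were lost with library totals, without untreated culture 3 (0.90 and 0.51) and without KCl culture 4 (0.54 and 0.46). Sox9, a glial factor, was at 508, 543 and 525 CPM untreated and 231 and 259 CPM after KCl (log2 fold change -1.10 ± 0.14, adjusted p = 9e-09) and fell, as did Sox2 (-0.68) and Foxp2 (-1.08). Sox2 (-0.60) and Foxp2 (-0.94) did not pass without KCl culture 5.

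Cell type markers were checked for the mixture that the labels and methods describe. Neuronal markers were present (Tubb3, Snap25 and Rbfox3 all passed the read filter), and 5 of 21 tested members rose and 0 fell (median log2 fold change 0.25, with 10 and 1 without untreated culture 1, 3 and 0 without untreated culture 3, 3 and 0 without KCl culture 4, 3 and 0 without KCl culture 5, no fall at an unadjusted p under 0.05 either, and 0 by DESeq2 and limma-voom), with Ina at 1.14 and Elavl3 at 0.67. With coding reads only the log2 fold change of Elavl3 turned to -0.11, and neither it nor Ina (0.72) passed. Rbfox3 was at 14.6, 15.1 and 17.9 CPM untreated and 21.6 and 18.03 CPM after KCl and did not pass (log2 fold change 0.32). Of astrocyte markers 2 of 24 tested members rose and 4 fell (median log2 fold change -0.13). Gfap did not pass (log2 fold change -0.22), and Aqp4 fell (-0.45), a call that was lost without KCl culture 5 and with coding reads only. The metallothioneins Mt1, at 2270.4, 2209 and 1931 CPM untreated and 1030.3 and 1254 CPM after KCl (log2 fold change -0.90 ± 0.14, adjusted p = 6.5e-07), and Mt2, at 4122, 3999 and 3705 CPM untreated and 2086 and 2087 CPM after KCl (log2 fold change -0.92 ± 0.13, adjusted p = 3e-07), fell, and Cldn10 (0.58) and Ndrg2 (0.51) rose. Neither rise passed with coding reads only (Cldn10 0.48, Ndrg2 0.087). That of Cldn10 was also lost without untreated culture 2 (0.53) or 3 (0.55), and without KCl culture 4 its log2 fold change was 0.44. The summed level of astrocyte markers ran from 37960 to 40100 CPM untreated and from 33660 to 35520 CPM after KCl. Without Mt1 and Mt2 it ran from 31570 to 33890 CPM and from 30540 to 32180 CPM, so that the groups overlapped. The sum of neuronal markers ran from 2080 to 2728 and from 2806 to 2869 CPM. The part of these differences in the results for other genes was not tested. Oligodendrocyte precursor markers (0 rises and 2 falls among 12 tested), myelin genes (0 rises and 0 falls among 10 tested), endothelial and pericyte markers (1 rise and 1 fall among 7 tested), fibroblast markers (2 rises and 4 falls among 17 tested, 0 and 4 without untreated culture 3, 0 and 1 without KCl culture 4, 0 and 2 without KCl culture 5) and GABAergic markers (4 rises and 1 fall among 12 tested) completed the check. At an unadjusted p under 0.05 edgeR gave 1 rise in the precursor list and 0 calls among myelin genes, and DESeq2 and limma-voom gave 0 in both places after adjustment.

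Synaptic genes were called at few members. Presynaptic vesicle and release genes had 4 rises and 1 fall among 40 tested (10 and 0 without untreated culture 1). Syt4, a vesicle protein of dense core granules and a known activity-regulated gene, was at 25.8, 17.98 and 23.5 CPM untreated and 147 and 97.3 CPM after KCl (log2 fold change 2.44 ± 0.21, adjusted p = 4.9e-14). Gad1, which makes GABA, was at 12.2, 6.80 and 8.68 CPM untreated and 23.7 and 24.7 CPM after KCl (log2 fold change 1.38 ± 0.34, adjusted p = 0.0014). Glutamate receptors and postsynaptic scaffolds had 6 rises and 1 fall among 35 tested (3 and 0 without KCl culture 4), and voltage-gated channels 2 rises and 1 fall among 33 tested (0 and 1 without untreated culture 2, 0 and 1 without untreated culture 3, 0 and 0 without KCl culture 4), a balance that turned with library totals (1 rose and 2 fell). Of 10 inhibitory receptors 0 passed in edgeR, also at an unadjusted p under 0.05, and 0 in DESeq2 and limma-voom. Without untreated culture 1 edgeR gave 2 rises and 0 falls among them. Kcnj4 (1.40) and Kcnj2 (1.22), inward rectifiers, rose. Neither passed with library totals, by DESeq2, or without untreated culture 2 (1.47 and 1.35) or 3 (1.00 and 1.30), and Kcnj2 did not pass without untreated culture 1 (1.03) or either KCl culture (1.31 and 1.13). Axon guidance had 4 rises and 3 falls among 42 tested (3 and 4 without untreated culture 1, 3 and 5 without untreated culture 2, 2 and 3 without KCl culture 5), with the ligand Efnb2 at 1.88, and with library totals 3 rose and 9 fell. Microtubule, kinesin and dynein genes had 8 rises and 2 falls among 36 tested (12 and 5 without untreated culture 1, 6 and 0 without KCl culture 4), and actin and focal adhesion genes 1 rise and 6 falls among 26 tested (0 and 3 without KCl culture 4), with the smooth muscle genes Cnn1 (-1.40) and Tagln (-0.75) among the falls while Srf rose. The extracellular matrix list had 3 rises and 6 falls among 39 tested (2 and 3 without KCl culture 4), and thrombospondin Thbs1, a secreted glial protein, was at 85.05, 104 and 81.2 CPM untreated and 458 and 411 CPM after KCl (log2 fold change 2.27 ± 0.15, adjusted p = 1.8e-18).

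Genes of mitochondrial translation had falls and no rise among their calls. Of mitochondrial ribosomal proteins, 0 of 53 tested members rose and 12 fell (median log2 fold change -0.34, with 0 and 5 without KCl culture 4), or 22.6% falls against 11.9% of all genes. Mrps2 was at 117, 88.4 and 92.9 CPM untreated and 43.2 and 38.4 CPM after KCl (log2 fold change -1.29 ± 0.20, adjusted p = 8.8e-07), and Mrps17 (-1.19) and Mrpl58 (-1.11) also fell. In 2 lists drawn up after the values had been seen, mitochondrial tRNA synthetases had 0 rises and 6 falls among 20 tested and genes of mitochondrial DNA and RNA maintenance 0 rises and 6 falls among 22 tested. At an unadjusted p under 0.05 edgeR gave 1 rise in each of these 3 lists, and DESeq2 and limma-voom gave 0 after adjustment. Without untreated culture 2 edgeR gave 1 rise after adjustment among the mitochondrial ribosomal proteins. Pars2, the mitochondrial prolyl-tRNA synthetase, was at 16.9, 11.7 and 13.3 CPM untreated and 0.526 and 2.85 CPM after KCl (log2 fold change -2.96 ± 0.56, adjusted p = 4.5e-05). Tefm, the mitochondrial transcription elongation factor (chr11:80136678-80142175, minus strand, GRCm38), was at 20.7, 14.6 and 20.4 CPM untreated and 1.58 and 1.90 CPM after KCl (log2 fold change -3.36 ± 0.51, adjusted p = 6.6e-07), the largest fall of all genes tested in which the groups did not overlap. Pars2 and Tefm had a KCl mean under 10 reads, so the read filter fixed the direction of both falls.

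The respiratory chain, by contrast, had 4 rises and 3 falls among 57 tested (3 and 4 without untreated culture 1, 3 and 1 without untreated culture 2), a balance that turned with library totals (1 rose and 10 fell). It did not keep its count of falls without either KCl culture. The proteasome had 1 rise and 0 falls among 31 tested (2 falls at an unadjusted p under 0.05, 0 in DESeq2 and limma-voom). Without untreated culture 1 it had 1 fall. Of ribosome biogenesis genes, 4 of 38 tested members rose and 8 fell (median log2 fold change -0.32, with 2 and 4 without KCl culture 4, 2 and 4 without KCl culture 5), with Polr1e (-1.29) and Rrp1b (-1.20) among the falls and Polr1c (1.16) and Gnl3 (0.90) among the rises. Translation factors had 11 rises and 3 falls among 52 tested (10 and 1 without untreated culture 1, 7 and 1 without KCl culture 4, 9 and 0 without KCl culture 5), with the release factor Etf1 at 1.30 and the kinase Eif2ak3 at 1.23, and with library totals 7 rose and 6 fell. Cytosolic ribosomal proteins had 5 rises and 0 falls among 14 tested (3 and 0 without untreated culture 1, 3 and 0 without untreated culture 3, 1 and 0 without KCl culture 4, 1 and 0 without KCl culture 5), with 1 fall at an unadjusted p under 0.05 and 0 in DESeq2 and limma-voom. Only 14 of 44 listed genes entered, most ribosomal protein genes have near-identical copies in the genome, and the authors removed degenerate sequences, so these values are uncertain. DNA replication genes had 3 rises and 6 falls among 40 tested (2 and 3 without KCl culture 4, 2 and 2 without KCl culture 5), with the primase Prim1 at -2.03, and mitosis genes 2 rises and 1 fall among 41 tested (3 and 4 without untreated culture 2, 0 and 1 without KCl culture 4, and with library totals 2 rose and 3 fell). The call of Polr1e was lost without KCl culture 4 (-0.99).

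Among families taken by symbol, the Zfp-numbered zinc finger genes had many falls. They are mostly DNA-binding repressors with arrays of zinc fingers, many with a KRAB domain. Of 160 tested, 20 rose and 53 fell (median log2 fold change -0.33). Zfp60 was at 36.2, 22.8 and 25.5 CPM untreated and 4.74 and 4.27 CPM after KCl (log2 fold change -2.63 ± 0.38, adjusted p = 2.4e-07), Zfp518a at 30.5, 18.5 and 25.5 CPM untreated and 4.74 and 3.80 CPM after KCl (log2 fold change -2.53 ± 0.40, adjusted p = 1.5e-06) and Zfp707 at 27, 28 and 34 reads untreated and 3 and 5 reads after KCl (log2 fold change -2.83 ± 0.53, adjusted p = 3.4e-05). Each lay far below its untreated cultures after KCl. All of these had a KCl mean under 10 reads, so the read filter fixed their direction. Zfp207, which binds microtubules and RNA, went the other way at 361, 319 and 352 CPM untreated and 966 and 904 CPM after KCl (log2 fold change 1.44 ± 0.13, adjusted p = 3.4e-13). The falls numbered 31 without KCl culture 4 and 32 without KCl culture 5. The genes of this family share sequence, and reads that map to several transcripts were kept, so single members are uncertain.

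The share of falls was lowest among genes with the most reads, and the share of rises was lowest among those with the fewest. The genes were ranked by mean RNAseq reads over all 5 libraries and cut into 4 bins of equal size. A rise or fall thus moved a gene's own rank, and changes are easier to detect with more reads. Some falls also passed the read filter only through the untreated cultures. These limits hold for the Zfp genes too. In the lowest bin 4.11% rose and 12.99% fell, and in the highest bin 26.7% rose and 7.53% fell. Zfp genes lay mostly in the lower bins (66 of 160 in the lowest), and within each bin the share that fell was higher than among all genes, at 42.4%, 25.5%, 33.3% and 18.8% from the lowest to the highest bin against 12.99%, 14.4%, 12.8% and 7.53%. From the lowest to the highest bin 2, 6, 6 and 6 Zfp genes rose and 28, 13, 9 and 3 fell, so that in the highest bin more rose than fell. Their median log2 fold change was -0.91, -0.27, 0.0055 and -0.082. The median transcript length was 3236 nt for all genes tested, 3560 nt for rises and 3092 nt for falls.

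**Figure D4:**
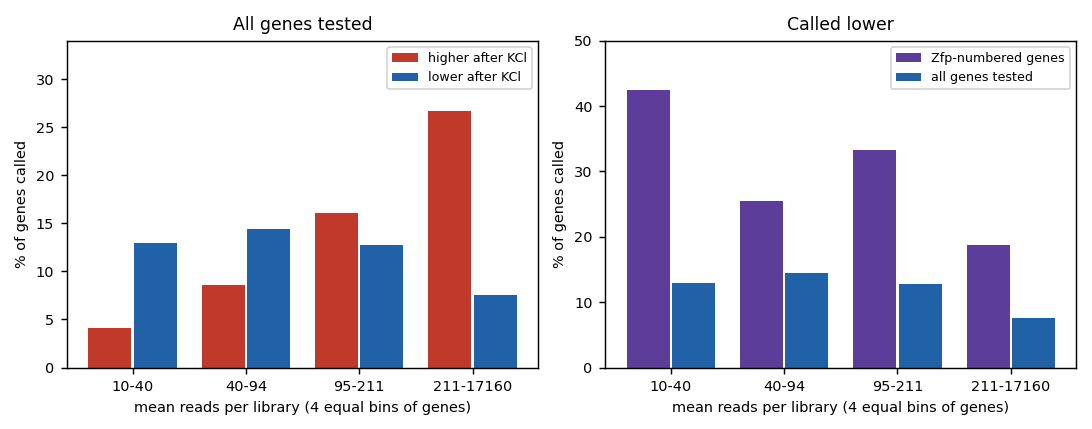
Left, share of all genes tested (in %) that rose or fell, in 4 bins of mean RNAseq reads per library. Right, share that fell among Zfp-numbered genes and among all genes in the same bins, with 42.4% against 12.99% in the lowest and 18.8% against 7.53% in the highest.

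Of the other families, BTB-zinc finger and BTB-kelch genes leaned to falls (6 rises and 13 falls among 58 tested), among them Zbtb26 (-2.47) and Kbtbd8 (-2.28), with Zbtb2 (1.70) and Zbtb11 (1.47) among the rises. Solute carriers, with 10.2% rises and 12.4% falls, lay near the 13.9% and 11.9% of all genes. F-box proteins had 16.7% rises and 7.14% falls. G protein-coupled receptors had 6 rises and 12 falls among 52 tested (6 and 7 without untreated culture 1, 4 and 7 without KCl culture 4, 3 and 5 without KCl culture 5), with Gpr84 (-2.06) and the adrenergic receptor Adra1b (-1.81) lowest and Gpr19 (1.91) and Gpr3 highest. Solute carriers had 19 rises and 23 falls among 186 tested (14 and 15 without KCl culture 4, 11 and 11 without KCl culture 5), from Slc38a2 at the top to Slc16a14 (-1.77), a monocarboxylate transporter family member. Krüppel-like factors had 4 rises and 2 falls among 13 tested (3 and 0 without KCl culture 5), with Klf5 at 20.7, 23.3 and 19.9 CPM untreated and 146 and 156 CPM after KCl (log2 fold change 2.82 ± 0.19, adjusted p = 1.3e-17) and Klf15 at -1.30. Fox factors had 7 rises and 3 falls among 17 tested (4 and 2 without KCl culture 4, 4 and 2 without KCl culture 5), with Foxo4 (1.06) and Foxo3 (0.63) rising and Foxo1 (-0.56) falling, and Sox factors had 1 rise and 4 falls among 11 tested (1 and 2 without KCl culture 5). F-box proteins had 7 rises and 3 falls among 42 tested (4 and 2 without KCl culture 4, 4 and 0 without KCl culture 5), led by Fbxo32 (1.88), a ubiquitin ligase subunit known from muscle atrophy. Calls lost without KCl culture 5 were those of Kbtbd8 (-2.02), Adra1b (-2.13), Slc16a14 (-1.47), Klf15 (-1.21) and Foxo4 (0.60). Those lost without KCl culture 4 were Adra1b (-1.57) and Foxo1 (-0.48), and without untreated culture 1 Slc16a14 (-1.43) and Foxo1 (-0.41).

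Genes with few footprints, a mean under 20 RF reads per library on the same transcript, numbered 1072 of those tested. Of these 96 rose (8.96%) and 107 fell (9.98%), so 18.9% passed against 25.8% of all genes. Of the 203, 17 rises had an untreated mean under 10 reads and 62 falls a KCl mean under 10 reads, so their direction was fixed by the read filter. The 4 rises that follow are of this kind and are given as a description. Hhipl2, a gene related to the Hedgehog-interacting protein, had 0, 1 and 1 reads untreated and 27 and 25 reads after KCl, a ratio of 39.9 (95% exact interval 10.5 to 338, counting error only). Isg20, an interferon-inducible exonuclease, had 0, 1 and 2 reads untreated and 25 and 22 reads after KCl, a ratio of 24 (7.73 to 121). Nectin4, an adhesion molecule, had 0, 1 and 2 reads untreated and 30 and 24 reads after KCl, and Tmem236 had 2, 1 and 0 reads untreated and 33 and 21 reads after KCl, each with a ratio of 27.6 (8.96 to 138). No untreated culture of these 4 genes had more than 2 reads. Their mean RF reads were at most 2.6 per library. No RNAseq read lay in the coding region of 260 of the 1072 genes, so for these few RF reads do not show that the gene had few footprints. Among the other 812 genes 55 rose (6.77%) and 89 fell (11%).

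Other genes with few footprints had more reads. Dnajb6, a chaperone of the DnaJ family with a mean of 7.4 RF reads on this transcript, was at 37.1, 30.1 and 52.1 CPM untreated and 251 and 238 CPM after KCl (log2 fold change 2.62 ± 0.18, adjusted p = 8.2e-18). Oser1, an oxidative stress responsive gene, was at 23.5, 24.3 and 21.4 CPM untreated and 135 and 117 CPM after KCl (log2 fold change 2.45 ± 0.20, adjusted p = 4.9e-15). In both the KCl cultures lay several-fold above all untreated cultures. Dnajb6, Oser1, Kcne4 and Hes5 had 0 RNAseq reads in the coding region of the counted transcript in either group, so their footprints could not be judged. Kcne4, a potassium channel accessory subunit (3.05), and Edn1, the vasoconstrictor endothelin (2.34), also rose. Edn1 had 4 RF reads over the untreated libraries and 42 over the KCl libraries, so most of its footprints came after KCl. Among falls were Det1 (25, 22 and 38 reads untreated and 1 and 5 reads after KCl, log2 fold change -3.17 ± 0.59, adjusted p = 3e-05), a ubiquitin ligase component, Hes5, Phf19 (log2 fold change -2.32 ± 0.49, adjusted p = 0.00019), a Polycomb-associated protein, and Lipt2 (log2 fold change -2.32 ± 0.57, adjusted p = 0.0016), an enzyme of lipoate attachment in mitochondria whose call was lost without KCl culture 4. Kcne4 and Edn1 had an untreated mean under 10 reads and these 4 falls a KCl mean under 10 reads, so they too entered through the group in which they were high. Falls over 2-fold had few footprints in 18.1% of cases and rises over 2-fold in 11.9%, against 11.02% of all genes tested. These falls also had fewer RNAseq reads, with a median of 33.2 per library against 136.6 for these rises and 94.4 for all genes. Whether the shares differ beyond read depth was not tested.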

How the data were processed

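RNAseq libraries were made by the authors from 68 ng of total RNA with a kit that does not mark strand and sequenced as 50 bp single-end reads, so overlapping genes cannot be told apart. The authors trimmed reads with Trimmomatic 0.32, removed rRNA with STAR 2.3.1z8, aligned the rest with Bowtie2 2.2.2 to the mm10 transcriptome of Ensembl 75 without degenerate sequences, kept multi-mapped reads and counted with bedtools 2.20.1. Replicate 3 of the KCl group had been removed for its low library size. The deposited values are raw read counts per transcript region, without normalization. The letter b marks the coding region by its share of RF reads (90.5% to 93.3%).

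Of 22534 transcripts, 22172 (98.4%) were matched to GENCODE M21 on GRCm38, giving 13184 genes. Counts of 9726 genes with a mean of at least 10 reads were fitted with edgeR 4.0.16 (quasi-likelihood, robust, TMM) in R 4.3.3, with Benjamini-Hochberg adjustment over all of them. Standard errors are the absolute log2 fold change over the square root of F, an approximation. The labels number the cultures and give no litter, so p-values measure the spread between these cultures. An exact permutation of 3 against 2 libraries cannot go below 0.1. The fit was tested on simulated counts of the 9726 genes with 200 changed, of which it recovered 83% at a log2 change of 1 and 42% at 0.7, with 4.58% of calls false. The simulation used the fitted dispersion trend and as many rises as falls, with far fewer changed genes than the 2508 called. Its false share therefore does not measure that of the calls in the data. DESeq2 1.42.0, limma-voom 3.58.1, other scalings, filters and transcript choices, and leaving out each library were the alternatives.

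The members and the 79 gene lists were chosen with earlier results of these data known, and 3 further lists after the fit. Named genes are, per list, up to 3 rises and 3 falls with groups that do not overlap, the 20 largest of each over all genes, the 10 largest of each with few footprints, and well-known list members. Lists were described by counts and medians only. Figures were drawn with matplotlib in Python. Results for a few members are not reported here.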

Additional observations from a re-analysis of the deposited data

How the results depend on the processing

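With library totals in place of TMM, 1793 genes fell. With a mean of at least 100 reads, which tests 4699 genes, 1579 passed, 839 rose and 740 fell. With coding reads only, which tests 7563 genes, 1097 passed, 657 rose and 440 fell. At an unadjusted p under 0.05, 1762 genes fell. In the exact permutation test 0 genes reached an unadjusted p under 0.05, since the smallest p it can give is 0.1, and 3371 genes had that value (edgeR called 3565 at an unadjusted p under 0.05). Leaving out 1 library gave between 1518 and 2581 genes that passed, between 892 and 1436 that rose and between 626 and 1145 that fell, with the lowest of each without KCl culture 4 and the lone KCl culture then assumed to vary like the untreated ones. DESeq2's Wald test called 1881 genes, of which 1877 were among the 2508. Of 400 called genes that the rule chose or the text names besides, 348 kept their call under DESeq2's Wald test, 386 under limma-voom and 373 with library totals. With coding reads only 211 of 305 kept it, and 2 turned direction, Elavl3 (log2 fold change -0.11) and Kif23 (-0.068). The cause was not tested. Without KCl culture 4, 296 of 391 kept the call and without KCl culture 5, 290 of 390. No paired analysis was possible because the untreated cultures are numbered 1 to 3 and the KCl cultures 4 and 5, with no number in common. With 2 KCl libraries, changes under 2-fold were often not detectable.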
